A study of Rattus norvegicus with 9 samples.

Results

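The receptors described here are the adrenergic, muscarinic and purinergic receptors that transmitters of the autonomic nerves act on to set the tone of prostate smooth muscle. They comprise 9 genes: Adra1a, Adra1b, Adra1d, Adra2a and Adrb1 for adrenoceptors, Chrm1, Chrm2 and Chrm3 for muscarinic receptors, and P2rx1 for an ATP receptor. They were chosen by name, through the transcript accession of each array probe, out of 15163 named genes on the array. All 9 genes had a probe, 11 probes in total, with 2 for Chrm2 and 2 for P2rx1. Of the 9 genes, 6 had enough signal above background to be tested, while Adra2a, Chrm1 and Chrm2 had not.

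RNA of whole prostates from male Sprague Dawley rats, 6 weeks old at purchase, was measured with Agilent single-colour arrays, with 3 rats and 3 arrays in each of 3 groups out of 8 rats per group in the study. Sham rats were operated on without removal of the testes and were given the solvents alone, oil by injection and water by gavage. In the BPH group, benign prostatic hyperplasia was induced by castration followed by dihydrotestosterone at 3 mg/kg daily for 4 weeks, with the same oral vehicle. In the BPH+ghrelin group, castration and dihydrotestosterone were the same, and ghrelin at 20 nmol/kg was given daily by gavage during the last 2 weeks, although a legend of the study names an intraperitoneal route and another dose. The model is thus androgen replacement after removal of the testes, and sham rats kept their own testes, so castration and the injected androgen cannot be told apart. Values are log2 signals after quantile normalization, and a difference of 1 on this scale is a 2-fold difference.

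Noradrenaline from sympathetic nerves contracts prostate smooth muscle mainly through α1-adrenoceptors, which couple to Gq proteins, phospholipase C and calcium release. Acetylcholine acts on muscarinic receptors of the glands and the muscle, and ATP, released together with noradrenaline, opens P2X channels. β-Adrenoceptors raise cyclic AMP and relax smooth muscle, and α2-adrenoceptors on nerve endings restrain the release of noradrenaline.

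The promoters of Adra1d and P2rx1, and of Adra1b and Adrb1, are shown because each of these pairs of genes had signals that ran together over the 9 arrays, and the pairs ran against each other. Promoters were available for 8 of the 9 genes, and none for Adra1a. They were taken from RefSeq, assembly GRCr8, and span 300 bases, from 250 bases before to 50 bases after the start of the gene. Adra1d lies at chr3:139262282-139262581 on the minus strand, P2rx1 at chr10:58116857-58117156 on the plus strand, Adra1b at chr10:28814298-28814597 on the minus strand and Adrb1 at chr1:265776853-265777152 on the plus strand. Capitals mark any match to a steroid receptor half-site (AGAACA or TGTTCT), a GC box (GGGCGG or CCGCCC) or the CArG box of serum response factor. E-boxes (CANNTG) were searched for as well but were not put in capitals.
Adra1d: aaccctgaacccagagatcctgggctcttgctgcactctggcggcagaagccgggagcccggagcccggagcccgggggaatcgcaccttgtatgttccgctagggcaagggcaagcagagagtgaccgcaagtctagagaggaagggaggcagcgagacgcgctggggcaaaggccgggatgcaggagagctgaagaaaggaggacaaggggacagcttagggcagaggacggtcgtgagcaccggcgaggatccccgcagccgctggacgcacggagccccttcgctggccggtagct
P2rx1: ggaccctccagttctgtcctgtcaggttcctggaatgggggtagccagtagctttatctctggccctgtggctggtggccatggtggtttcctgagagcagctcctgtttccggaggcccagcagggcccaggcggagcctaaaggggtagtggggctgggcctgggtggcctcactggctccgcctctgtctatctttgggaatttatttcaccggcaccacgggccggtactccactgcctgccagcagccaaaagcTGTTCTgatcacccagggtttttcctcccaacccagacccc
Adra1b: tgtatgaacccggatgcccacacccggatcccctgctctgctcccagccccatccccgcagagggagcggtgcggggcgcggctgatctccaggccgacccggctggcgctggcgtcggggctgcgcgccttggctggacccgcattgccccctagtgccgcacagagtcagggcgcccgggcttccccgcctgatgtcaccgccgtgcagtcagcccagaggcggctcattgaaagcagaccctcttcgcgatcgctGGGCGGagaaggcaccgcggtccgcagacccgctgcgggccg
Adrb1: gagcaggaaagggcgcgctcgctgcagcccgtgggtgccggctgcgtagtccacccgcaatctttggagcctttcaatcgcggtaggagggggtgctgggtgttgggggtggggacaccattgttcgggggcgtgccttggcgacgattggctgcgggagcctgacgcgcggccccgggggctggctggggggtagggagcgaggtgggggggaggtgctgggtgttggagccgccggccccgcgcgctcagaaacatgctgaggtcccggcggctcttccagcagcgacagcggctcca

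All 4 sequences were rich in G and C, with 65.7% in Adra1d, 61.0% in P2rx1, 72.0% in Adra1b and 70.7% in Adrb1, against a median of 51.7% over 33469 promoters of the same length. The P2rx1 promoter held 1 steroid receptor half-site, beginning at base 260 of the window, and 20.7% of all promoters held at least 1 on either strand. The Adra1b promoter held 1 GC box, beginning at base 259, a motif present in 33.1% of all promoters. In the promoters of Adra1d and Adrb1 none of the 4 motifs was found. E-boxes were in 72.1% and CArG boxes in 1.64% of all promoters. These matches are letters in a window, and binding to them was not measured.

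The arrays on which the receptors were read differed in brightness. Before normalization the median signal was 101 to 133 on the BPH arrays, 40.9 to 95.9 in sham and 73.3 to 86.0 in BPH+ghrelin. Of the probes, 69.5 to 75% were well above background on 8 arrays, but 61.3% on sham replicate 2, and the lowest signal that counted as well above background was 3.89 on that array and 2.39 to 2.97 on the other 8. No spot was saturated. Slides were inferred from the scan identifier stored with each array, and no label names them. Arrays that share an identifier are called a slide here. By this, a first slide carried all 3 BPH arrays together with BPH+ghrelin replicate 1. A second slide carried 2 arrays of each remaining group, namely BPH+ghrelin 2 and 3 with sham 1 and 2, and sham replicate 3 was alone on another.

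Adra1a, the subtype to which most of the α1-mediated contraction of the prostate is attributed, read 7.15, 5.76 and 6.47 on the 3 sham arrays, 6.13, 6.34 and 6.62 on the BPH arrays, and 6.55, 6.47 and 6.14 on the BPH+ghrelin arrays. The sham arrays held both the highest and the lowest value, and all groups overlapped. Means were 6.46 ± 0.69 in sham, 6.36 ± 0.25 in BPH and 6.39 ± 0.22 in BPH+ghrelin (SD, n = 3). In limma, with p-values adjusted over all genes tested, BPH minus sham was -0.10 (SE 0.32, adjusted p = 0.867), and BPH+ghrelin minus BPH was 0.02 (SE 0.32, adjusted p = 0.974). The 95% interval of the latter ran from -0.72 to 0.77, so differences of up to about 1.7-fold either way were not resolved.

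Adra1b, an α1 subtype with a large part in vascular tone, read 5.60, 6.37 and 5.84 in sham, 5.32, 5.44 and 5.48 in BPH, and 5.95, 5.66 and 5.80 in BPH+ghrelin. After normalization, every BPH array lay below every array of the other 2 groups. Before it, the linear signals of BPH (51.6 to 62.6) overlapped with those of sham (39.6 to 53.3) and BPH+ghrelin (48.2 to 56.5). The BPH arrays were 0.53 lower than sham on the log2 scale, a 1.44-fold difference (difference -0.53, SE 0.20, 95% interval -0.98 to -0.07, limma adjusted p = 0.147), and BPH+ghrelin was 0.39 higher than BPH (SE 0.20, adjusted p = 0.297). Neither difference passed the test. Without sham replicate 2, BPH minus sham was -0.31.

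Adra1d, the α1 subtype with high affinity for noradrenaline, which is found in vessels, bladder and prostate, read 4.66, 3.44 and 4.20 in sham. The value of sham replicate 2 was not well above background, so the sham level rests on 2 measured arrays and a reading under the limit. BPH arrays read 4.31, 4.77 and 5.15, and BPH+ghrelin arrays 3.69, 3.82 and 3.97. All 3 BPH+ghrelin arrays lay below all 3 BPH arrays, while sham and BPH overlapped. The difference BPH+ghrelin minus BPH was -0.92 (SE 0.32, 95% interval -1.65 to -0.18), a 1.89-fold lower signal (limma adjusted p = 0.164). The difference BPH minus sham was 0.64 (SE 0.32, adjusted p = 0.237) with all arrays and 0.32 without sham replicate 2.

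The Adra1d probe was printed 10 times on each array, so its reading error could be seen directly. Within an array the SD of the spots on the log2 scale was 0.08 to 0.37, and the largest was on sham replicate 2, where 1 of 10 spots was well above background. On the other 8 arrays every spot used was well above background, with 9 spots used on BPH replicate 2 and 10 on the rest. The spread between rats within the BPH group (SD 0.42) was larger than the spot SD of each BPH array (0.08 to 0.16). In BPH+ghrelin the SD between rats was 0.14 and the spot SDs were 0.22 to 0.30. An array value is a mean of its spots, so the SE of the spots is the matching reading error. That SE was 0.068 to 0.096 in BPH+ghrelin and 0.025 to 0.049 in BPH, below the SD between rats in each.

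**Figure D1:**
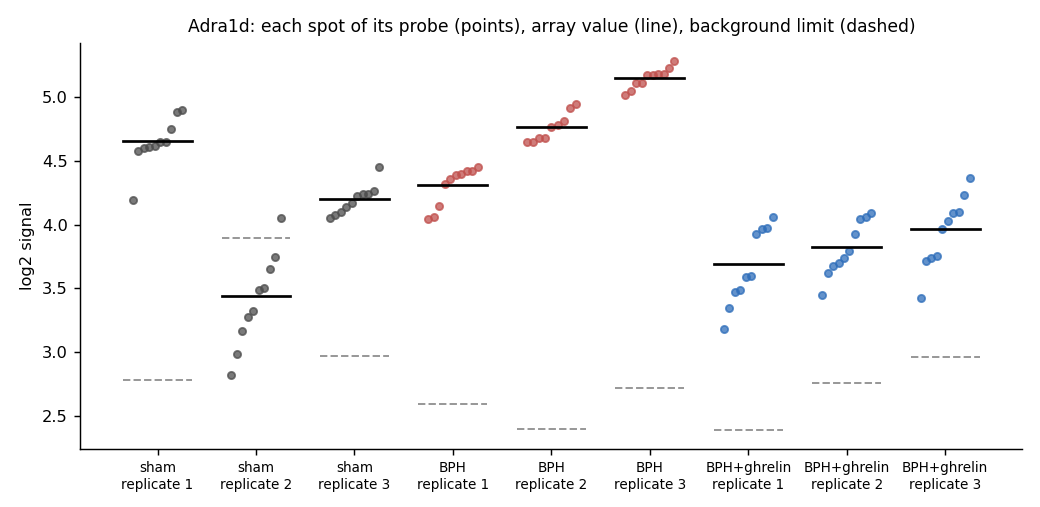
Log2 signal of each spot of the Adra1d probe on the 9 arrays (points), the array value as the log2 of the mean spot (solid line) and the lowest signal that counted as well above background on that array (dashed line). The array values of BPH+ghrelin (3.69 to 3.97) lie below those of BPH (4.31 to 5.15), and sham replicate 2 is the array whose value (3.44) falls under its dashed line (3.89).

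Adra2a, an α2-adrenoceptor of nerve endings, was not well above background on any of the 9 arrays, with readings of 0.64 to 2.78. No fold is given for it.

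Adrb1 encodes the β1-adrenoceptor, best known from the heart, which raises cyclic AMP. It read 4.94, 5.51 and 5.03 in sham, 3.99, 4.33 and 4.72 in BPH, and 4.98, 5.15 and 5.24 in BPH+ghrelin. As for Adra1b, all BPH arrays lay below all arrays of the other 2 groups after normalization, and sham and BPH+ghrelin overlapped. Before normalization, the linear signals of BPH (22.5 to 30.2) overlapped with those of sham (22.0 to 34.0) and BPH+ghrelin (29.4 to 36.3). BPH was 1.76-fold lower than sham (difference -0.81, SE 0.22, 95% interval -1.33 to -0.30, limma adjusted p = 0.0763). BPH+ghrelin was 1.71-fold higher than BPH (difference 0.78, SE 0.22, 95% interval 0.27 to 1.29, limma adjusted p = 0.115). Both comparisons use the same 3 BPH arrays, and neither passed after adjustment. BPH+ghrelin minus sham was -0.04 (SE 0.22, limma adjusted p = 0.941).

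Chrm3, the Gq-coupled muscarinic receptor that drives glandular secretion and smooth muscle contraction, was the brightest of the 9 genes on every array. It read 9.96, 10.25 and 9.96 in sham, 10.33, 10.37 and 10.65 in BPH, and 10.39, 10.49 and 10.71 in BPH+ghrelin. Every array of both castrated and androgen-treated groups lay above every sham array, whereas BPH and BPH+ghrelin overlapped. BPH was 1.31-fold higher than sham (difference 0.39, SE 0.15, limma adjusted p = 0.155), and BPH+ghrelin was 1.39-fold higher than sham (difference 0.47, SE 0.15, adjusted p = 0.107). BPH+ghrelin minus BPH was 0.08 (SE 0.15, adjusted p = 0.802), with a 95% interval of -0.27 to 0.43.

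The other muscarinic receptors were near or under background. Chrm1, which like Chrm3 couples to Gq, read 0.86, 1.89 and 0.99 in sham, 2.97, 2.66 and 2.56 in BPH, and 0.78, 0.87 and 1.65 in BPH+ghrelin. The BPH readings were the highest, but only BPH replicate 1 was well above background, so no fold is given and the gene was not tested. Chrm2, which couples to Gi proteins, was not well above background with either of its 2 probes on any array, with readings of 1.18 to 2.74 for the brighter probe and 0.52 to 2.31 for the other.

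P2rx1 encodes the P2X1 channel, which opens on binding of ATP and carries the fast purinergic contraction of smooth muscle. Its brighter probe read 5.18, 4.31 and 4.97 in sham, 4.85, 4.98 and 5.24 in BPH, and 4.55, 4.20 and 4.07 in BPH+ghrelin. All BPH+ghrelin arrays lay below all BPH arrays, while sham overlapped with both. BPH+ghrelin was 1.68-fold lower than BPH (difference -0.75, SE 0.24, 95% interval -1.30 to -0.19) (limma adjusted p = 0.147). BPH+ghrelin minus sham was -0.55 (SE 0.24, adjusted p = 0.217), and BPH minus sham was 0.20 (SE 0.24, adjusted p = 0.616). The second probe of P2rx1 also read lower in BPH+ghrelin (3.65, 3.56 and 3.14) than in BPH (4.48, 4.48 and 4.61), again without overlap, a difference of -1.07 or 2.10-fold that was not part of the test.

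**Figure D2:**
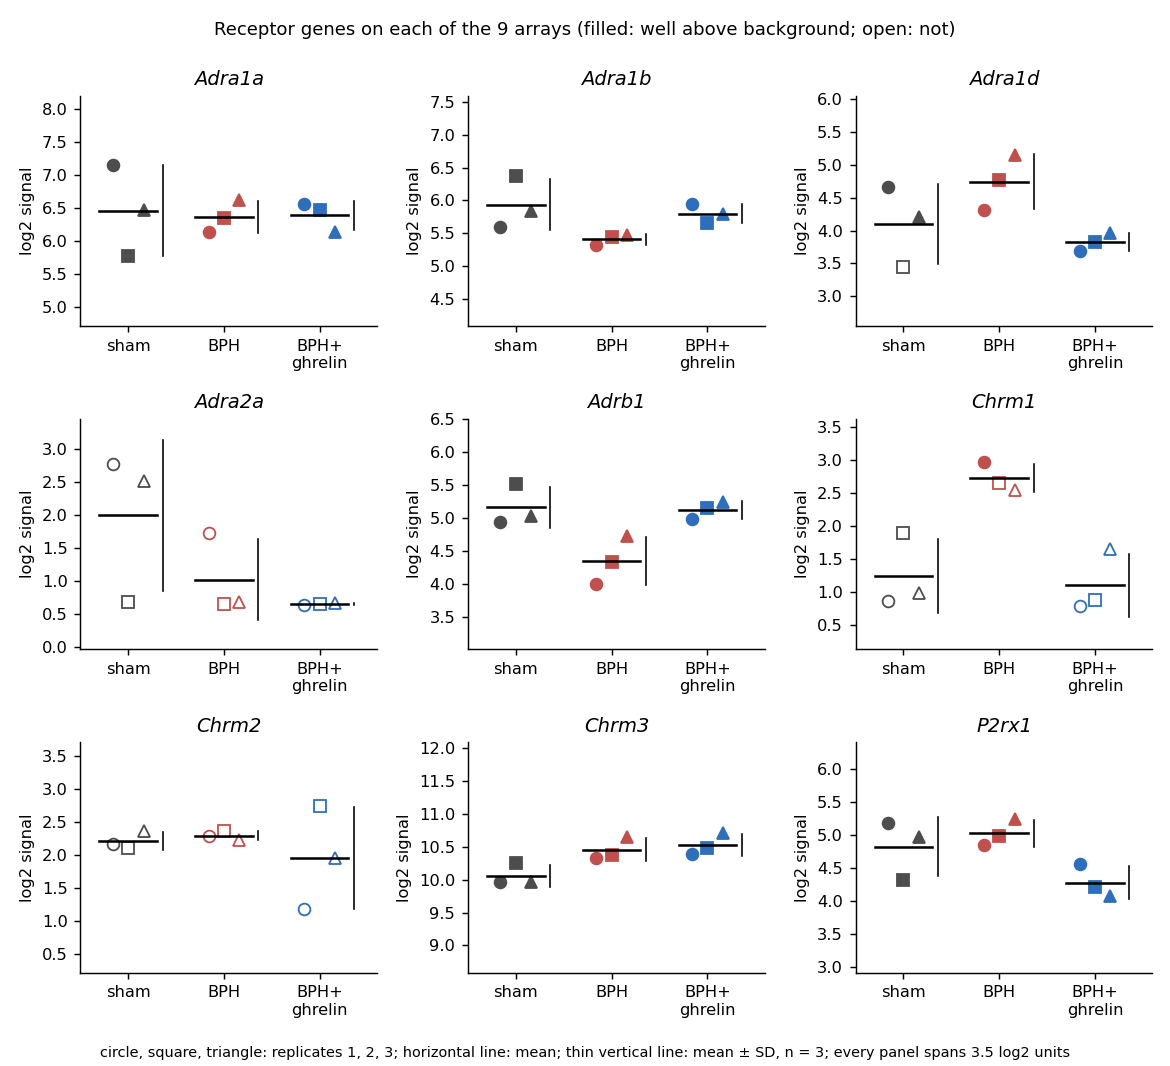
Log2 signal of the 9 receptor genes on each array, by group, with the mean (horizontal line) and SD (vertical line) of 3 arrays; filled symbols were well above background and open symbols were not. BPH arrays lie lowest for Adra1b and Adrb1, BPH+ghrelin arrays lie below BPH for Adra1d and P2rx1, and sham arrays lie lowest for Chrm3.

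Between BPH and sham, which asks what castration with androgen replacement did to the receptors, 0 of 6 tested receptors passed an adjusted p under 0.05 in limma, where 4.33% of 19548 genes did. At an unadjusted p under 0.05 there were 3 of 6, Adra1b and Adrb1 lower and Chrm3 higher in BPH, against 26.5% of all genes. All 3 BPH arrays lay on a slide without sham arrays, and with slide as a block 0 of 6 had such a p in limma. In that fit 2 of 19548 genes passed after adjustment, in place of 847, and the share of all genes with such an unadjusted p was not counted. The same 3 genes had no overlap between the arrays of both groups, which held for 31.3% of all genes. None differed 2-fold or more, as 8.16% of all genes did. The median difference of the 6 receptors was 0.05, beside 0.04 over all genes.

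Between BPH+ghrelin and BPH, the comparison of ghrelin with vehicle in hyperplastic prostates, 0 of 6 receptors passed after adjustment, where 1.48% of 19747 genes did. Adra1d and P2rx1 lower and Adrb1 higher made 3 of 6 at an unadjusted p under 0.05, against 21.1% of all genes. With slide as a block it was 0 of 6, in a fit where 2 of 19747 genes passed after adjustment, in place of 293. With Adra1b, 4 of 6 had no overlap between the groups, a separation found for 39.2% of all genes. None differed 2-fold or more by its brightest probe (6.10% of all genes), although the dimmer P2rx1 probe did. The median difference was 0.05 over the receptors and 0.02 over all genes, with 4 receptors higher and 2 lower.

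Between BPH+ghrelin and sham, again 0 of 6 receptors passed, where 6.30% of 19195 genes did. Chrm3 was the 1 receptor with an unadjusted p under 0.05 (23.7% of all genes) and the 1 without overlap (30.4% of all genes). None differed 2-fold or more (7.40% of all genes). With slide as a block 0 of 6 receptors had such an unadjusted p, in a fit where 84 of 19195 genes passed after adjustment, in place of 1210. The median difference was -0.10 over the receptors and 0.04 over all genes. With 3 arrays on each side, the smallest p of a two-sided exact permutation test is 0.1, so single receptors were judged by limma alone. The comparisons share arrays, so the values of a receptor in them are not independent.

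**Figure D3:**
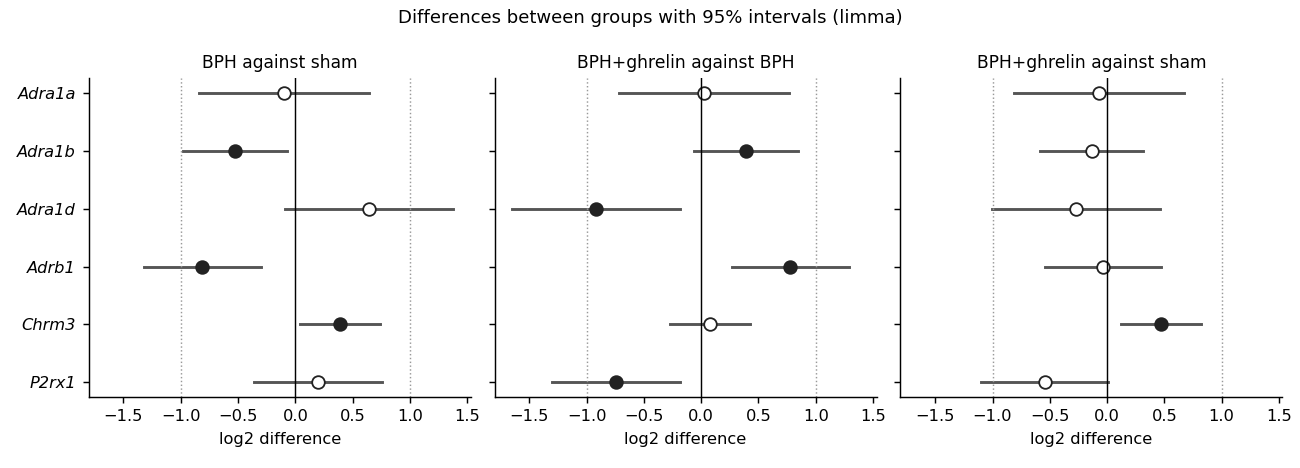
Log2 differences of the 6 tested receptors in the 3 comparisons, first group minus second, with 95% intervals from limma; filled points had no overlap between the arrays of both groups, and dotted lines mark 2-fold. The intervals of Adrb1 exclude 0 in BPH against sham (-1.33 to -0.30) and in BPH+ghrelin against BPH (0.27 to 1.29) before adjustment over all genes.

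Values within slides were given where a slide held arrays of both groups. One slide held 3 BPH arrays and 1 BPH+ghrelin array. On it, BPH+ghrelin minus BPH was -1.05 for Adra1d, -0.47 for P2rx1, 0.63 for Adrb1 and 0.54 for Adra1b. The groups did not overlap for these genes, so the signs were fixed beforehand and are no check on the slide. For Chrm3 the difference on this slide was -0.06, and for Adra1a 0.19. On the slide with 2 BPH+ghrelin and 2 sham arrays, BPH+ghrelin minus sham was 0.49 for Chrm3 and -0.61 for P2rx1. The sign for Chrm3 was also fixed beforehand, since its BPH+ghrelin and sham arrays did not overlap. On this slide the difference was -0.15 for Adra1a, -0.26 for Adra1b, -0.15 for Adra1d and -0.03 for Adrb1. BPH and sham shared no slide, so with slide as a block the difference was fitted through the BPH+ghrelin arrays. BPH minus sham was then -0.66 for Adrb1, -0.80 for Adra1b, 0.55 for Chrm3 and -0.14 for P2rx1. For Adra1a it was -0.34 and for Adra1d 0.90.

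The order of the receptors by probe signal is that of the probes, since probes of different genes differ in how well they hybridise. In sham it was Chrm3, Adra1a, Adra1b, Adrb1, P2rx1 and Adra1d from bright to dim. Neighbours whose arrays did not overlap were Chrm3 and Adra1a, and Adra1b and Adrb1, while Adra1a and Adra1b, Adrb1 and P2rx1, and P2rx1 and Adra1d did overlap. BPH+ghrelin had the same order, with no overlap between any neighbours. In BPH, Adrb1 stood last, behind P2rx1 and Adra1d. P2rx1 overlapped with Adra1d and Adra1d with Adrb1, whereas P2rx1 and Adrb1 did not overlap. Among the adrenoceptors, Adra1a, Adra1b and Adra1d followed each other in this order on 8 of 9 arrays. On sham replicate 2, Adra1b was brighter than Adra1a. Adrb1 was dimmer than Adra1d on the 3 BPH arrays and brighter on the other 6.

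Smooth muscle carries several of these receptors, so its markers were read on the same arrays. Of 10 listed markers, 9 were on the array and detected, including Acta2, Myh11, Cnn1 and Des, and 8 were well above background on all 9 arrays. The mean log2 signal of the 9 detected markers was 9.87 to 10.58 in sham, 10.05 to 10.75 in BPH and 9.65 to 10.03 in BPH+ghrelin. The list's median difference was 0.15 in BPH against sham and -0.49 in BPH+ghrelin against BPH, where 8 of 9 markers were lower and 1, Myh11, passed the test (-0.96, adjusted p = 0.0160). In BPH+ghrelin against sham the median was -0.37, with 8 of 9 markers lower, and Myh11 passed again (-1.07, limma adjusted p = 0.00244). In whole tissue, fewer cells of a type and less RNA per cell cannot be told apart.

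Over the 9 arrays, the signal of P2rx1 ran with the mean of the 8 smooth muscle markers at r = 0.90, that of Adra1d at 0.85 and that of Adra1a at 0.72. Adra1b (r = -0.42), Adrb1 (-0.27) and Chrm3 (-0.29) did not follow the markers. Among the receptors, Adra1d and P2rx1 ran together at r = 0.83 and Adra1b and Adrb1 at 0.84, and Adra1b and Adra1d ran against each other at -0.77. These values describe 9 arrays in 3 groups that share normalization, and they carry no test.

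The mean of these 8 markers was 0.44 lower in BPH+ghrelin than in BPH (difference -0.44), so relative to it the median gene read 0.45 higher, and 34.5% of all genes had no overlap. Set against the markers of the same array, P2rx1 was 0.31 lower in BPH+ghrelin than in BPH (difference -0.31), and the groups then overlapped. Adra1d was 0.48 lower without overlap (difference -0.48), and Adrb1 (1.22), Adra1b (0.83) and Adra1a (0.46) read higher relative to the markers without overlap, and Chrm3 (0.52) with overlap. Of these, Adra1a and Chrm3 lay near the shift of the median gene. In BPH against sham, Adra1d was 0.57 and Chrm3 0.32 higher relative to the markers, and Adrb1 (difference -0.89) and Adra1b (-0.60) were lower. Only Adra1d and Adrb1 were without overlap in that comparison, as were 14.3% of all genes, while Adra1b and Chrm3, which did not overlap before, then did. In BPH+ghrelin against sham Chrm3 was 0.84 higher relative to the markers, where the median gene was 0.41 higher, and the groups, separate before, then overlapped. P2rx1 was lower there (difference -0.18) and the other tested receptors were 0.09 to 0.33 higher, all with overlap. Of all genes, 37.3% had no overlap in that comparison. The part of smooth muscle content in the receptor differences was not tested beyond these values.

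**Figure D4:**
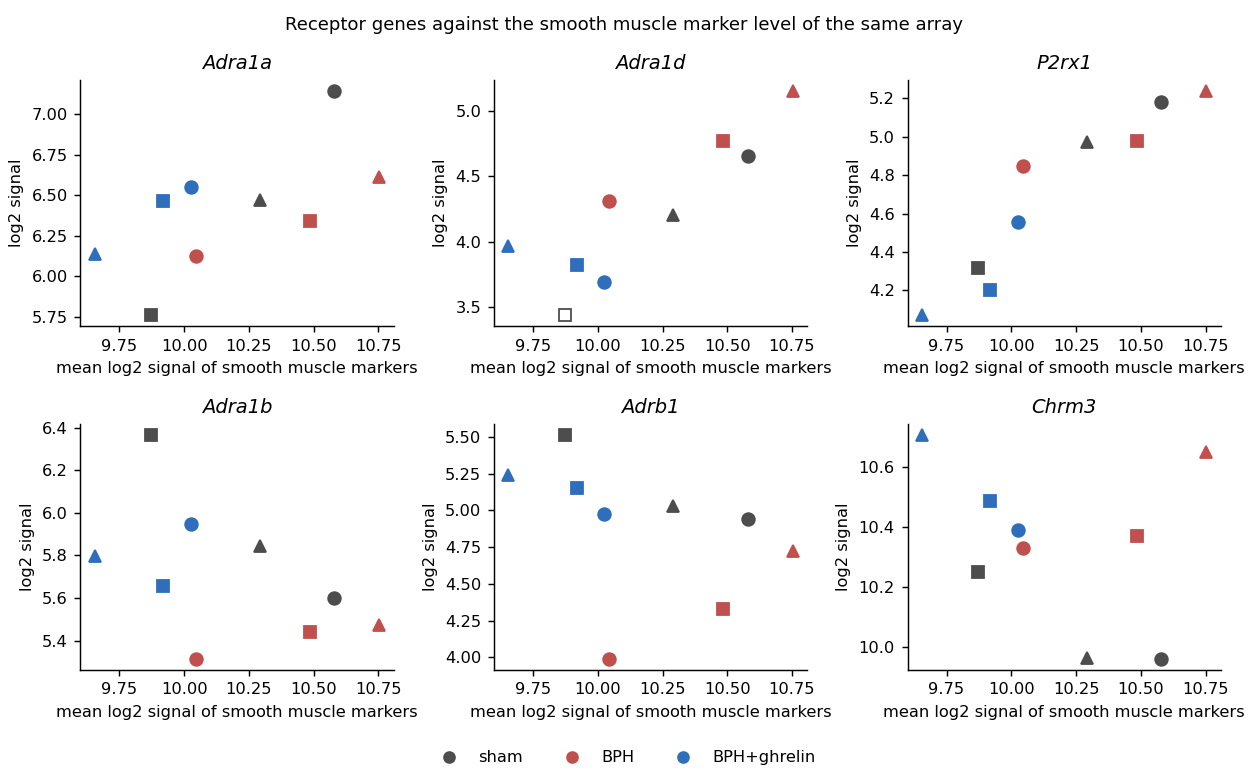
Log2 signal of the 6 tested receptors on each array against the mean log2 signal of the detected smooth muscle markers on that array; colours are groups, symbols are replicates, and the open symbol was not well above background. P2rx1 and Adra1d run with the markers (r = 0.90 and 0.85 with the 8 markers detected on all arrays), whereas Adrb1 and Chrm3 do not (-0.27 and -0.29).

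Markers of other cells differed too. The list for the secretory epithelium, which marks the labelled tissue, averaged 13.16 to 13.44 in sham, 10.54 to 12.20 in BPH and 10.59 to 11.60 in BPH+ghrelin, with 8 of its 10 genes detected, of which 2 fell and 1 rose in BPH against sham. Chrm3, which glands carry, read lowest in sham, where that list read highest. Endothelial markers, 4 of 5 detected, averaged 6.26 to 6.80 in sham, 6.46 to 6.80 in BPH and 5.91 to 6.15 in BPH+ghrelin. Nerve and Schwann cell markers, 8 of 10 detected, averaged 5.97 to 6.02 in sham, 5.85 to 6.32 in BPH and 6.05 to 6.38 in BPH+ghrelin. Leukocyte markers, 2 of 4 detected with Cd79b on no array, averaged 8.50 to 8.64 in sham, 8.38 to 8.87 in BPH and 7.98 to 8.09 in BPH+ghrelin. Markers of the seminal vesicle, a neighbouring gland with its own muscle, averaged 8.84 to 9.98 in sham, 5.22 to 8.06 in BPH and 4.64 to 6.80 in BPH+ghrelin, with 5 of 6 detected and 2 of them on all 9 arrays. In BPH against sham, Svs3a and Svs4 passed as lower and Semg1 was lower without passing (-4.64, limma adjusted p = 0.172). Svs6 (1.27, adjusted p = 0.338) and Svs5 (0.26, adjusted p = 0.720) differed the other way without passing. Of the basal epithelium markers, 4 of 4 detected, Krt14 rose in BPH against sham (0.72, adjusted p = 0.0447), Tp63 differed the other way without passing the test (-0.73, adjusted p = 0.112), and the list averaged 9.17 to 9.23 in sham, 9.40 to 9.53 in BPH and 9.36 to 9.43 in BPH+ghrelin. Of the striated muscle markers, 6 of 7 detected with Myh4 on no array, Ckm fell in BPH against sham (-1.90, adjusted p = 0.00450), Acta1 (0.54) and Myh2 (0.42) differed the other way without passing, and the list averaged 4.74 to 6.07 in sham, 4.79 to 5.46 in BPH and 4.84 to 4.88 in BPH+ghrelin. Adipocyte markers, 2 of 4 detected with Lep on no array, averaged 4.82 to 10.37 in sham, 8.79 to 10.22 in BPH and 3.06 to 10.22 in BPH+ghrelin. The part of these tissues in the receptor differences was not tested.

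The other genes of these pathways comprised 66 genes in 3 lists, namely further receptors, coupling and desensitisation, and the synthesis, transport and breakdown of transmitters. In BPH against sham 52 were tested, 1 rose and 1 fell, where 4.33% of all genes were called, so the share called in the lists was near that of all genes. Grk5, a kinase that phosphorylates activated receptors and so desensitises them, rose from 5.13, 4.89 and 4.89 in sham to 5.48, 5.59 and 5.79 in BPH (difference 0.65, SE 0.13, limma adjusted p = 0.0379). P2rx3, an ATP-gated channel of sensory nerves, fell from 6.80, 7.02 and 6.85 to 6.05, 6.09 and 6.08 (difference -0.82, SE 0.17, adjusted p = 0.0403). The call of Grk5 held in 1 of 6 fits that left out an array, and that of P2rx3 also in 1 of 6. Without 5 of the 6 arrays in turn, all but sham replicate 1, the adjusted p of Grk5 was 0.05003 to 0.162 and that of P2rx3 was 0.0627 to 0.167. BPH and sham shared no slide, and both calls were lost with slide as a block (adjusted p = 0.792 for Grk5 and 0.369 for P2rx3) or with replicate number as a block (0.0991 and 0.0861). The differences themselves were 0.58 for Grk5 and -1.32 for P2rx3 with slide as a block. With replicate number as a block they stayed at 0.65 and -0.82.

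In BPH+ghrelin against BPH, 1 of 52 genes of the lists fell and 0 rose, near the 1.48% called over all genes. Rgs5, which speeds the shut-off of Gq and Gi proteins and marks pericytes, fell from 5.74, 5.72 and 6.01 to 4.81, 4.70 and 5.10 (difference -0.96, SE 0.15, limma adjusted p = 0.0295). Sham arrays read 5.46, 5.48 and 5.36, between both groups. The call held in 1 of 6 fits that left out an array, the one without BPH replicate 3, and the adjusted p was 0.0531 to 0.151 in the other 5. It was lost with slide (adjusted p = 0.266) or replicate number (0.0795) as a block. The difference itself was -1.02 with slide and -0.96 with replicate number as a block.

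In BPH+ghrelin against sham, 2 of 51 genes fell and 0 rose, where 6.30% of all genes were called. P2rx3 read 6.06, 5.76 and 5.39 in BPH+ghrelin, 2.23-fold lower than in sham (difference -1.15, SE 0.17, limma adjusted p = 0.0107). Adra2b, a further α2-adrenoceptor, read 7.84, 8.06 and 7.77 in sham and 7.34, 7.31 and 7.11 in BPH+ghrelin (difference -0.63, SE 0.13, adjusted p = 0.0288). The call of P2rx3 was lost without sham replicate 3 (adjusted p = 0.0510) or BPH+ghrelin replicate 2 (0.0602). That of Adra2b was lost in 4 of 6 fits, without sham replicate 3 or any 1 of the BPH+ghrelin arrays (adjusted p = 0.0679 to 0.114). With slide as a block both calls were lost (adjusted p = 0.0589 for P2rx3 and 0.175 for Adra2b), and with replicate number as a block that of Adra2b was (0.0629).

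Larger differences that did not pass the test with quantile normalization and all arrays concerned dim or uneven probes. P2ry1, a Gq-coupled receptor for ADP, read 3.63, 0.70 and 3.25 in sham and 4.90, 4.94 and 5.01 in BPH (difference 2.42, SE 0.66, limma adjusted p = 0.0751), and 2 of 3 sham readings were well above background. Without sham replicate 2 the difference was 1.51, with an adjusted p of 0.00687. It also passed without sham replicate 1 (adjusted p = 0.0275) and, with all arrays, after scaling to the 75th percentile (0.0454), after normexp correction (0.0389) and in the processed matrix of the authors (0.0125). With slide as a block it did not pass (0.834). BPH+ghrelin arrays read 4.93, 4.57 and 4.45 for P2ry1, above all sham arrays as well (difference 2.12, adjusted p = 0.0969). The 0.70 on sham replicate 2 was not well above background, so both differences of P2ry1 from sham are not exact. Chat, which makes acetylcholine, read 3.92, 5.55 and 4.48 in sham, 3.40, 3.05 and 3.74 in BPH and 4.73, 4.94 and 5.45 in BPH+ghrelin. The BPH arrays lay below all others (difference -1.25 against sham, adjusted p = 0.109, and 1.65 for BPH+ghrelin against BPH, adjusted p = 0.0871). Against sham it was -0.80 without sham replicate 2 and was called without sham replicate 1 (-1.62, adjusted p = 0.0323). Against BPH it was called with the 6 arrays compared fitted alone (adjusted p = 0.0246).

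Slc18a1, a transporter that loads monoamines into vesicles, read 7.48 and 7.06 on sham replicates 1 and 3 but 2.97 on sham replicate 2, which was not well above background there. BPH arrays read 3.67, 3.82 and 3.91 and BPH+ghrelin arrays 3.74, 3.35 and 2.84, so the difference from sham turned on 1 array. BPH minus sham was -2.03 (SE 1.03, limma adjusted p = 0.243) with all arrays and -3.47 (adjusted p = 0.00141) without sham replicate 2. Of the BPH+ghrelin readings, that of replicate 3 was also not well above background, so the differences from sham are not exact. BPH+ghrelin minus sham was -2.53 (adjusted p = 0.182) and -3.96 (adjusted p = 6.8e-04). Adrb3, the β3-adrenoceptor, read 5.59, 5.19 and 4.93 in BPH and 1.93, 4.88 and 5.91 in BPH+ghrelin (difference -0.999, SE 1.03, adjusted p = 0.605). The 1.93 on BPH+ghrelin replicate 1 was not well above background, and without that array the difference was 0.16. With slide as a block it was -3.31, a value that rests on the same reading, as no other BPH+ghrelin array shared a slide with BPH.

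Over the lists, the median difference was 0.22 in BPH against sham, -0.20 in BPH+ghrelin against BPH and -0.04 in BPH+ghrelin against sham, beside 0.04, 0.02 and 0.04 over all genes tested. Of the 26 coupling and desensitisation genes tested, 21 were higher in BPH than in sham by any amount, as were 53.7% of all genes tested. In BPH+ghrelin against BPH 23 of 26 were lower, as were 48.3% of all genes tested. These comparisons share the BPH arrays, which by itself tilts the directions in them against each other, and 1 single difference of this list passed the test in each.

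**Figure D5:**
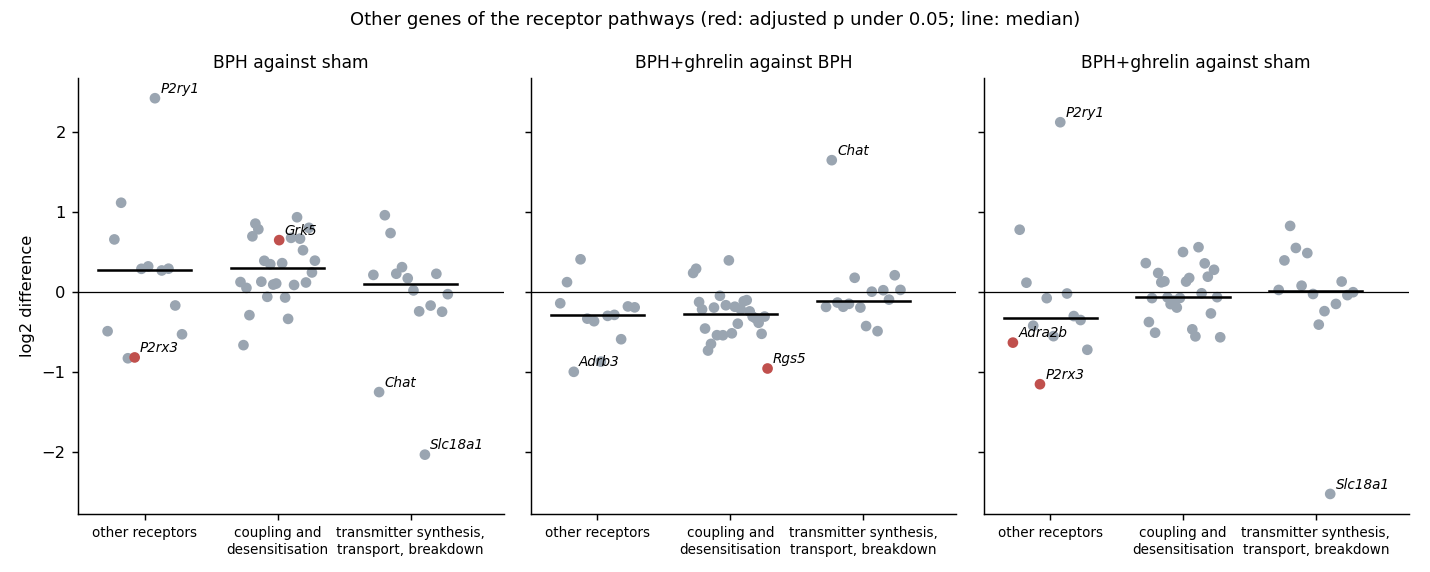
Log2 differences of the tested genes of 3 pathway lists in the 3 comparisons, with the median of each list as a line; red points had an adjusted p under 0.05, and named genes were called or among the 3 largest differences. Medians of the coupling list are 0.29 in BPH against sham and -0.28 in BPH+ghrelin against BPH.

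For each tested receptor, the genes whose pattern over the 9 arrays was most like it were found among 11089 named genes detected on at least 6 arrays. For Adra1d these were Cyp20a1, Stk3 and Napb (r = 0.97), and for P2rx1 Dact3, Hepacam2 and Cd81 (r = 0.98 to 0.99). Adra1b was followed most closely by Galnt18, Kctd3 and Csap1 (r = 0.97 to 0.98), and Adrb1 by Nutf2, Acsbg1 and Zbtb46 (r = 0.98). Adra1a was closest to Tceal8, Tubb4a and Tmed7 (r = 0.96), and Chrm3 to Ube2j1 and Xylb (r = 0.98). With 9 arrays and this many genes, high values are found for any pattern, and they are given as a description.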

How the data were processed

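Total RNA of 9 rat prostates was hybridised to Agilent single-colour arrays. The intensities deposited by the authors were linear signals that the scanner software had background-subtracted. The authors also deposited a matrix of log2 values, quantile normalized by them, used as an alternative only. Outlier spots were removed, spots of a probe were averaged, and log2 signals of 30356 probes were quantile normalized over the 9 arrays. Probes were named through RefSeq accessions (17998 with a symbol). A probe entered a comparison when well above background on at least 3 of 6 arrays, and a gene was represented by its brightest such probe. Groups were compared with limma 3.58.1 in R 4.3.3 (lmFit and eBayes, 3 groups, 9 arrays, Benjamini-Hochberg adjustment, call at 0.05), tested on simulated data. The number of arrays limits the precision. All 9 receptors are named. Of the pathway lists, genes called or among the 3 largest differences of a comparison are named. The study's methods give n = 3 per group for the arrays, and a legend names these as rats for BPH and BPH+ghrelin. Separate rats were assumed for sham as well. The members and lists were chosen with earlier results of these data known. Alternatives were other scalings, background corrections, filters, blocks and arrays left out. Replicate numbers did not pair the samples. A gene that the selection would name is not reported here.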

Additional observations from a re-analysis of the deposited data

How the results depend on the processing

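Alternatives were run for 6 receptors in 3 comparisons, 286 values in all, of which 265 kept direction and side of the threshold, 4 newly passed and 17 changed sign. With a replicate block, 0 receptors were called in each comparison, as without it. The numbers do not pair the samples (same-numbered arrays correlated at -0.16 to 0.31 in their deviations from the group means), and over all genes the block left 243, 17 and 461 calls in place of 847, 293 and 1210. At an unadjusted p under 0.05 the count of receptors was 3 in BPH against sham, 3 in BPH+ghrelin against BPH and 1 in BPH+ghrelin against sham. With slide as a block it was 0 in each, and calls over all genes fell to 2, 2 and 84. With the 6 arrays compared normalized and fitted alone, 1 receptor was called in BPH+ghrelin against BPH, P2rx1 (adjusted p = 0.0463), where 2101 of 19747 genes were called. Leaving out an array gave 0 to 2 called receptors in BPH against sham and 0 to 1 in BPH+ghrelin against sham. The 2 were Adra1b (adjusted p = 0.0458) and Adrb1 (0.0452) without sham replicate 1, where 3069 genes were called, and the 1 was P2rx1 (0.0399) without sham replicate 2, where 1926 of 19195 genes were.

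The changes of sign were as follows. With a slide block, P2rx1 was -0.14 in BPH against sham and Chrm3 -0.060 in BPH+ghrelin against BPH. Adra1a was -0.052 in BPH+ghrelin against BPH after scaling to the 75th percentile, and Adrb1 was 0.011 in BPH+ghrelin against sham after normexp correction. Leaving out an array moved BPH minus sham from -0.45 to 0.24 for Adra1a and from -0.053 to 0.38 for P2rx1. It moved BPH+ghrelin minus BPH from -0.092 to 0.15 for Adra1a, from -0.013 to 0.18 for Chrm3 and from -1.84 to 0.16 for Adrb3. It moved BPH+ghrelin minus sham from -0.42 to 0.27 for Adra1a, -0.30 to 0.080 for Adra1b, -0.60 to 0.0048 for Adra1d and -0.15 to 0.14 for Adrb1. The cause was not tested.

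Scaling to the 75th percentile shifted the median of all genes to -0.09 in BPH against sham and 0.10 in BPH+ghrelin against BPH, where 287 of 898 and 243 of 515 calls were higher, beside 421 of 847 and 98 of 293. With a slide block 2, 2 and 84 genes were called. Of 187 alternatives for the pathway genes named, 40 lost and 12 gained a call. Of 10 alternatives with all arrays, the call held in 3 for Grk5 and 5 for P2rx3 in BPH against sham, 8 for Rgs5 in BPH+ghrelin against BPH, and 9 for P2rx3 and 6 for Adra2b in BPH+ghrelin against sham. The lowest signal well above background, 3.89 on sham replicate 2, limits what is known of Adra1d, Adra2a, Chrm1 and Chrm2 in sham. Normexp with an offset of 50 shrinks the differences of dim probes by its construction.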
